A study of Elaeis guineensis with 38 samples.

Results

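In leaf of oil palm, Elaeis guineensis, 105 stretches of chromatin carried a called peak of the histone mark H3K4me3 in at least 2 of 5 palms with normal fruit and in none of 4 palms with mantled fruit. They are 105 of the 5826 regions (1.8%) obtained by merging the H3K4me3 peaks of all 9 libraries wherever peaks shared at least 1 bp. The regions were selected on the H3K4me3 calls themselves, so their separation of the phenotypes is a property of the selection and is given as a description without a test. The peaks of H3K27me3 at the same places were not used in the selection and were tested.

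The mantled palms were 687, 754, 765 and 770 for H3K4me3, and the same 4 with palm 673 for H3K27me3. The normal palms were 753, 758, 764, 767 and 768 for both marks. All 10 were clones of 1 mother palm, the ortet, and chromatin came from the leaf at frond 0 with no treatment named in the labels. Each palm was a separate plant and counted as 1 replicate, and each immunoprecipitated library was called against an input library of the same palm. A single ortet limits what the palms represent, and the phenotype is one of fruit whereas the chromatin came from leaf. An H3K4me3 library of palm 673 was not analysed here.

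Mantling is a defect of tissue-culture oil palms in which the stamens, and the rudimentary stamens of female flowers, develop like carpels, so that the fruit is surrounded by extra fleshy lobes. H3K4me3, trimethylation of lysine 4 on histone H3, is deposited around the starts of genes that are being transcribed, and in plants it typically sits just downstream of the start site. H3K27me3, trimethylation of lysine 27, is deposited by Polycomb group complexes and marks genes kept silent in a tissue, among them, in Arabidopsis, regulators of flower development that are silent in leaves. Leaf chromatin is a mixture of cell types, so fewer cells with a mark and less of the mark per cell cannot be told apart. Positions are on the numbered scaffold pieces of the deposited files, counted from 1. Genes, exons and promoters at these positions were not examined, and no sequence is shown, because no genome of the same build was used here.

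Depth was uneven. The mantled H3K4me3 libraries held 229258 fragments (palm 687), 534988 (754), 3670206 (765) and 783650 (770). The normal ones held 302016 (767), 1331454 (768), 1683525 (764), 3544422 (753) and 7883375 (758). The geometric mean of the mantled libraries was 0.428 times that of the normal libraries, with overlapping ranges (two-sided exact permutation p = 0.317, n = 4 and 5). H3K27me3 libraries held 253624 to 10374962 fragments in mantled palms and 336380 to 2056297 in normal palms, a ratio of 1.75 (two-sided exact permutation p = 0.508, n = 5 and 5). In 2 mantled lists the overlap with the other mark went against the label, by a wide margin in palm 754 and a narrow one in palm 770. In palm 754, 42.2% of the regions in the H3K4me3 list had H3K27me3 in at least 3 normal palms and 18.8% had H3K4me3 in at least 3. In each of the 5 normal H3K4me3 lists the first share, 14.9 to 58.4%, lay below the second, 17.6 to 74.8%, which was counted over the other 4 palms. The shares were 58.8 and 59.9% in mantled palm 687, 7.21 and 30.9% in 765, and 66.1 and 64.9% in mantled palm 770.

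The absence of a mantled peak rested mainly on palm 765, the deepest mantled library. Of the 2060 regions with a peak in at least 2 normal palms, 9.81% had one in mantled palm 687, 15.5% in palm 754, 86.3% in palm 765 and 20.8% in palm 770. The 105 regions made up 5.1% of these 2060. Another 1405 had palm 765 as their only mantled palm, and there the median fold enrichment in palm 765 was 6.51. Palm 765 is therefore the library whose missing peak separates the 105 regions from most others. Without palm 765 the rule kept 1649 regions, without palm 754 it kept 150, and 138 when that palm's 2 lists changed places, of which 103 were among the 105. Without palm 770 it kept 114. Removing normal palm 758 left 21 and removing normal palm 753 left 51.

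The opposite rule, a peak in at least 2 mantled palms and in no normal palm, gave 43 regions (0.738% of 5826). Of these, 41 had a peak in mantled palm 754, 30 in 770, 11 in 765 and 5 in 687, and 28 had peaks in exactly 754 and 770. Palms 754 and 770 are those whose lists overlapped the other mark against the label, by a narrow margin in 770, so these regions are uncertain as H3K4me3 regions. The numbers in the 2 directions come from groups of different size and depth and were not tested against each other.

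Most of the 105 regions only just met the rule. A peak was called in exactly 2 normal palms at 90 of them, in 3 at 13 and in 4 at 2, and in all 5 normal palms at none. The share of regions without a mantled peak was smaller where more normal palms had a peak. It was 12.0% of the 752 regions with peaks in 2 normal palms, 1.84% of 707 with 3, 0.521% of 384 with 4, and 0% of 217 with 5. These shares describe the selection.

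The 2 regions found in 4 normal palms had peaks in the same palms, 753, 758, 767 and 768, and lacked one in palm 764. On p5.00_sc02166_p0001, positions 3127 to 3611, the fold enrichment (pileup of fragments over local background at the peak's summit, as the authors' caller gives it) was 6.34 in palm 753, 3.02 in 758, 4.56 in 767 and 3.37 in 768. The pileups behind these values were 41, 121, 5 and 10 fragments, so those of palms 767 and 768 rested on few fragments. The call was correspondingly weak there, with a −log10 q of 3.08 and 2.07, against 18.9 in palm 753 and 22.4 in palm 758. The nearest mantled H3K4me3 peak on the piece was one of palm 765 at a distance of 1624 bp.

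On p5.00_sc00022_p0103, positions 292 to 905, the fold enrichment was 3.54 in palm 753, 2.76 in 758, 5.32 in 767 and 3.89 in 768. Pileups were 18, 63, 6 and 8 fragments, and −log10 q was 4.17, 9.84, 4.27 and 2.44 in the same palms. Only the call of palm 758 had a −log10 q above 5 here. A mantled peak of palm 770 lay 1182 bp away.

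The 13 regions with peaks in 3 normal palms had median fold enrichments from 1.49 to 5.27. All 13 had a peak in palm 753 and 12 in palm 758, with 10 in 768 and 4 in 767 beside them. The highest median was on p5.00_sc00076_p0110 from 8672 to 9018, where the fold enrichment was 3.39 in palm 753, 6.89 in 758 and 5.27 in 768, and no mantled H3K4me3 peak was called anywhere on the piece. The value of 6.89 was the highest of palm 758 among the 98 regions with a peak there. Next came p5.00_sc00228_p0008 from 4458 to 4776, with 4.29 in palm 753, 3.57 in 758 and 7.71 in 767, the highest value of any normal palm among the 105 regions. On p5.00_sc00075_p0096 from 11438 to 12175 the fold enrichment was 4.15 in palm 753, 5.06 in 758 and 3.60 in 767.

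Palm 768 was among the 3 at most of the others. On p5.00_sc01225_p0002 from 2102 to 2394, the values were 5.60 in palm 753, 2.85 in 758 and 3.83 in 768. On p5.00_sc00076_p0078 from 10880 to 11165, they were 2.06 in palm 753, 2.69 in 758 and 2.47 in 768. At the lower end, p5.00_sc00170_p0020 from 2083 to 2456 had 1.45 in palm 753, 1.49 in 758 and 2.12 in 768.

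**Figure D1:**
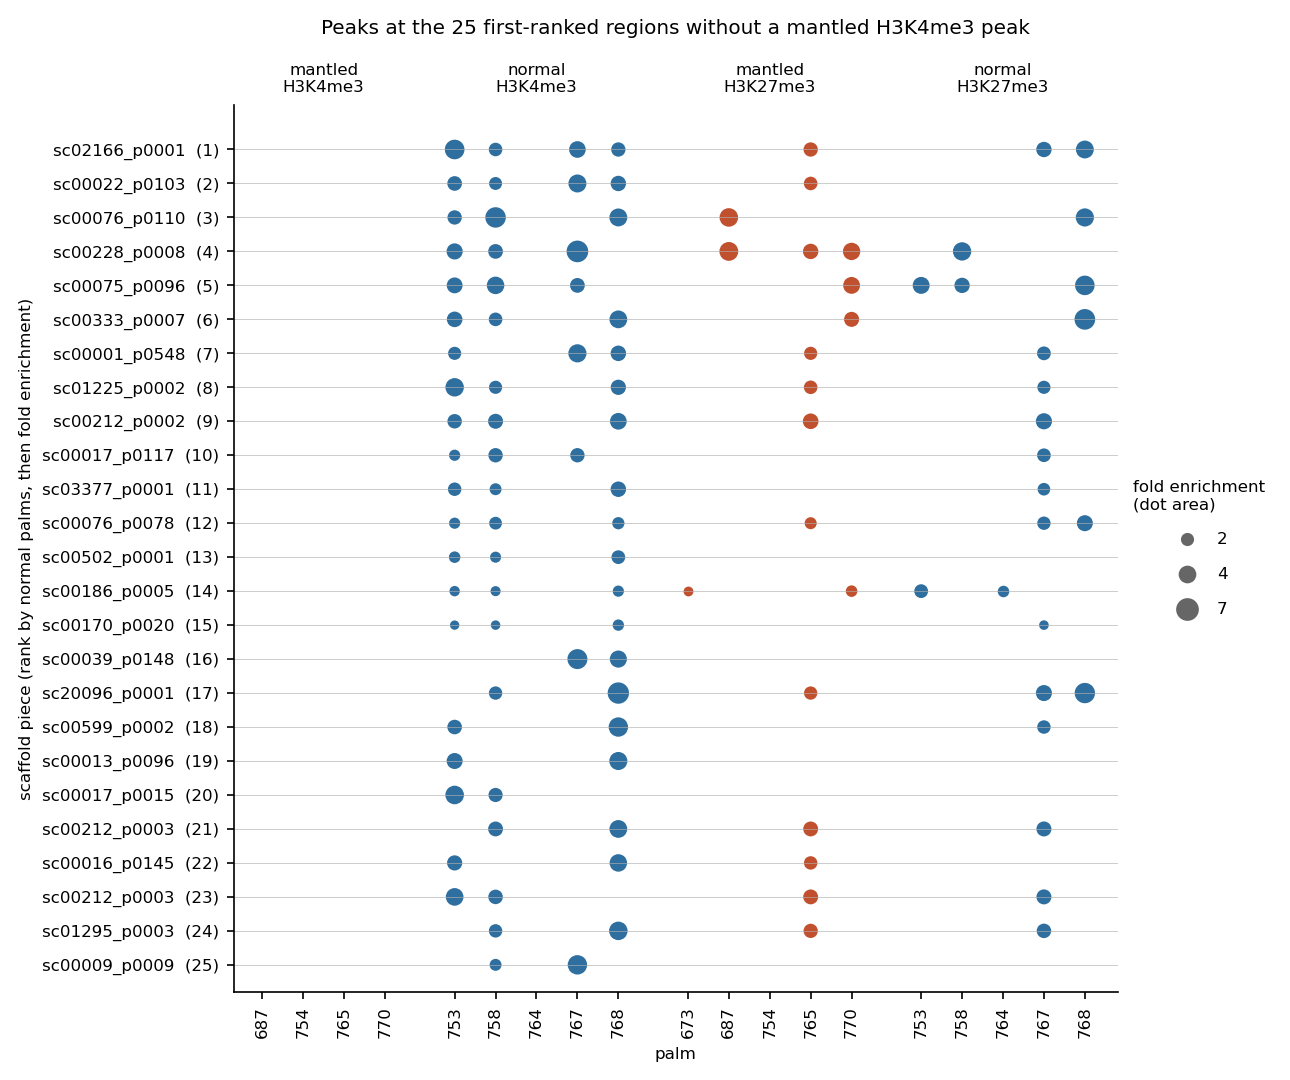
Dots mark called peaks at the 25 first-ranked regions (rows; rank by number of normal palms with H3K4me3 and then by median fold enrichment), with the dot area giving the fold enrichment and columns giving single palms, mantled left of normal for each mark. The H3K4me3 columns of mantled palms 687, 754, 765 and 770 are empty by the rule of selection, while H3K27me3 dots stand in both phenotypes.

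Among the 90 regions with peaks in 2 normal palms, median fold enrichments ran from 1.37 to 5.69. The highest was on p5.00_sc00039_p0148 from 5621 to 6043, with 6.57 in palm 767 and 4.81 in palm 768 at pileups of 8 and 14 fragments. It had no peak in the deeper normal palms 753 and 758. On p5.00_sc20096_p0001 from 39 to 375, palm 768 reached 7.51 and palm 758 had 2.94. On p5.00_sc00009_p0009 from 15388 to 15908, palm 767 had 6.21 and palm 758 had 2.35. The last 2 were among 9 regions where the fold enrichment differed by more than 2 times between normal palms, with a largest ratio of 2.84. The lowest median was that of the widest region, p5.00_sc00321_p0002 from 5585 to 6566, with 1.50 in palm 753 and 1.25 in palm 758 over 982 bp.

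The normal palms contributed unequally. Palm 758, the deepest, had a peak at 98 of the 105 regions, palm 753 at 69, palm 768 at 36, palm 767 at 13 and palm 764 at 11. Exactly 753 and 758 made up 50 regions, 758 and 768 another 18, and 758 and 764 another 11. Peaks in 753, 758 and 768 together accounted for 9 more, and 758 with 767 for 5. The 2 deepest normal libraries were thus both present at 64 regions, and only 7 regions had no peak in palm 758. As a share of each palm's own regions the 105 made up between 1.85 and 3.38%.

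In every normal palm the 105 regions had a higher median fold enrichment than the other 1955 regions with peaks in at least 2 normal palms. Their pileup was smaller and their q weaker. In palm 753 the median fold enrichment was 3.22 (1.33 to 6.34) against 2.67 for the other regions, with a pileup of 31 against 101 fragments. In palm 758 it was 2.58 (1.25 to 6.89) against 2.14, with a pileup of 69.5 against 278 fragments and a −log10 q of 11.2 against 24.4. The same order of fold enrichment held in palm 764 (3.19 against 1.99), palm 767 (4.56 against 4.25) and palm 768 (3.95 against 3.47). The medians of palms 764 and 767 rest on 11 and 13 of the 105 regions. Their peaks thus had a higher ratio to local background with fewer fragments, and the background itself was not compared. A peak needs a larger ratio to be called from fewer fragments, and the part of this in the difference was not tested. All of these values belong to the mark used in the selection and carry no test.

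**Figure D2:**
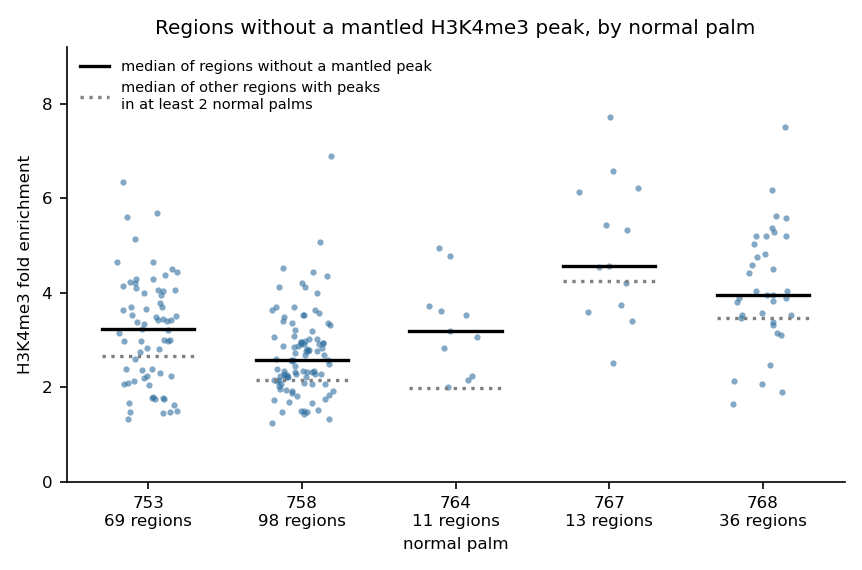
Each point is the H3K4me3 fold enrichment (vertical axis, ratio to local background) of 1 region in 1 normal palm (horizontal axis). Solid lines are the medians of the 105 regions, 2.58 in palm 758 to 4.56 in palm 767, and dotted lines those of the other regions with peaks in at least 2 normal palms, which lie lower in each palm.

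Over the normal palms with a peak, the 105 regions had a median fold enrichment of 3.36 (1.37 to 5.69), against 2.68 for the other 1955 regions and 2.73 for the 1405 whose only mantled palm was 765. The quartiles were 2.41 and 3.79, against 2.07 and 3.49 for the other 1955 regions. The median fold enrichment was at least 3 at 60 of the 105 regions and under 2 at 14. Their median −log10 q was 7.31 (2.52 to 52.5), against 14.1 and 11.8 in those 2 sets, and the median pileup was 44 against 102 and 86 fragments. At 53 of the 105 regions every normal palm with a peak had a −log10 q of at least 5. Counts at these thresholds are not given for the other sets, so they are not read as a trait of the 105 regions. The regions were also narrow, with a median width of 335 bp (221 to 982 bp) against 669 bp for the other 1955 regions. Merged width grows with the number of lists that contribute, and the part of this in the difference was not tested.

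Where both palms had a peak, the enrichment leaned to the shallower library. Of the 64 regions with peaks in 753 and 758, 48 had the higher fold enrichment in palm 753. Of the 29 with peaks in 768 and 758, 24 had the higher value in palm 768. The medians of the other 1955 regions, each over its own palm's peaks, had the same order. They were 2.67 in palm 753 and 3.47 in palm 768 against 2.14 in palm 758. The same counts over those regions are not given here, so the lean is not read as a trait of the 105 regions. A peak needs a larger ratio to be called from fewer fragments, and the part of this in the order was not tested.

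Regions just outside the rule were examined beside the 105. With all 5 normal palms and a single mantled palm, the highest median fold enrichment was on p5.00_sc01787_p0001 from 9927 to 11476, at 4.66 in mantled palm 765 and 4.98 ± 2.37 in normal palms (median, SD, n = 5). On p5.00_sc00411_p0001 from 2897 to 3283 it was 7.43 in mantled palm 765 and 4.46 ± 0.93 in normal palms (median, SD, n = 5). On p5.00_sc00106_p0012 from 20467 to 20783 it was 2.89 in mantled palm 765 and 4.46 ± 2.25 in normal palms (median, SD, n = 5). The other 2 had palm 765 far above the normal palms. On p5.00_sc00166_p0062 from 3096 to 3732 it was 15.1 in mantled palm 765 and 3.74 ± 1.12 in normal palms (median, SD, n = 5). On p5.00_sc00002_p0368 from 2 to 1352 it was 21.6 in mantled palm 765 and 3.68 ± 1.35 in normal palms (median, SD, n = 5). On the other side of the palm number, 741 regions had a peak in 1 normal and no mantled palm, with a median fold enrichment of 2.57, a width of 275 bp and a −log10 q of 6.18. The 90 regions with 2 normal palms had 3.22, 334 bp and 7.30.

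The regions were set against the depth of the mantled libraries by scaling. The caller's p is a Poisson probability of the pileup over the local background. It could be recomputed as a finite −log10 value for 14503 of the 14643 H3K4me3 peaks, and for 14499 of these it came within 1% of the deposited value. Each region's pileup and background in a normal palm were multiplied by the ratio of fragments in the 2 libraries, and the resulting −log10 p was compared with the lowest one in the other palm's list. The median scaled pileup of the 105 regions was 2.31 fragments at the depth of mantled palm 687, 5.39 at that of 754, 37.0 at that of 765 and 7.90 at that of 770. The lowest listed pileups in these palms were 4, 5, 12 and 6 fragments. The scaled −log10 p reached the lowest of the list at 5 regions in palm 687, 17 in palm 754, 105 in palm 765 and 25 in palm 770. At 80 of the 105 regions the value reached this limit in palm 765 alone. The limit does not decide a call. Over the 2060 regions with peaks in at least 2 normal palms, 93 that lay below it had a peak in mantled palm 687, 101 in 754 and 51 in 770.

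Regions that reached the limit often lacked a peak, in normal palms as well. Over the 2060 regions, with values taken from the other normal palms, a peak was present at 28.7% of the 380 regions that reached the limit in mantled palm 687, at 23.4% of 936 in 754, at 86.2% of 2057 in 765 and at 32.3% of 1166 in 770. In normal palms it was present at 88.6% of 2008 in 753, 95.4% of 2060 in 758, 24.2% of 1781 in 764, 70.2% of 477 in 767 and 73.5% of 1608 in 768. The share in normal palm 764 was thus close to those in mantled palms 687, 754 and 770. The 2060 regions were chosen for peaks in these same normal palms. That choice raises the normal shares directly and not the mantled ones, so the shares do not compare the phenotypes. The scaling takes account of depth alone and not of how well each immunoprecipitation enriched the mark, and values taken from called peaks run high.

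Palms 765 and 753 had nearly the same depth and can be set side by side. Of the 2060 regions, 283 had no peak in mantled palm 765. All 283 reached the limit there, and 178 of them had a peak in another mantled palm and 105 did not. At the 105 regions themselves, normal palm 753 reached the limit at 95 from the values of the other normal palms and had a peak at 59 of these. In normal palm 764 the limit was reached at 60 and a peak was present at 3, and in normal palm 768 at 44 and 18. The rule itself requires peaks in normal palms and none in palm 765 at the 105 regions, so these counts describe the selection.

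**Figure D3:**
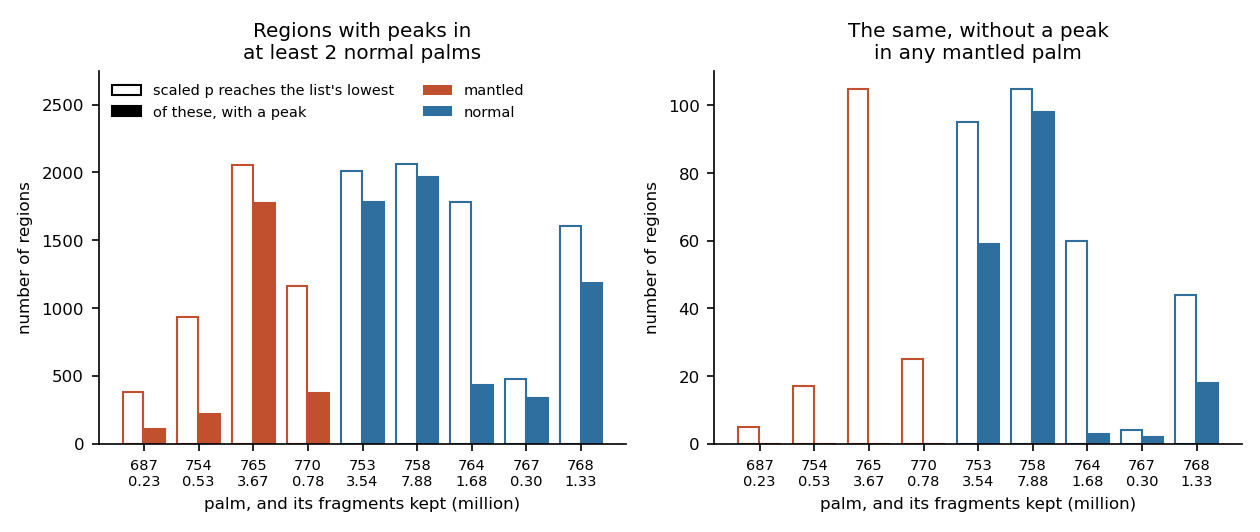
Open bars count regions whose scaled p reaches the lowest in that palm's H3K4me3 list, and filled bars those of them with a called peak; palms run along the horizontal axis with their fragments kept, mantled palms left of normal ones. On the left are the 2060 regions with peaks in at least 2 normal palms and on the right the 105 without a mantled peak, where palm 765 has an open bar of 105 and, by selection, no filled one.

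At 5 of the 105 regions the scaled value reached the limit in all 4 mantled palms. The strongest were p5.00_sc05286_p0001 from 2 to 222, with a scaled −log10 p of 10.8 in mantled palm 687, 23.6 in 754, 154 in 765 and 33.9 in 770, and p5.00_sc00001_p0548 from 14640 to 14868, with 10.6, 23.2, 152 and 33.7 in the same palms. The first had 151 fragments in palm 767 and 372 in palm 768, at fold enrichments of only 2.51 and 1.64, and no peak in normal palms 753, 758 and 764, which are deeper. The second had 388 fragments in palm 753, 49 in 767 and 196 in 768, at fold enrichments of 2.84, 5.43 and 3.96. It too lacked a peak in palm 758, the deepest H3K4me3 library. The other 3 were p5.00_sc00035_p0075 from 16533 to 17055, p5.00_sc00118_p0062 from 6841 to 7111 and p5.00_sc00039_p0148 from 5621 to 6043, with scaled values of 5.26, 5.85 and 4.94 in palm 687.

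The 105 regions were spread over 103 pieces of 90 scaffolds, and 12 scaffolds held more than 1 of them. For 53 of the regions a mantled H3K4me3 peak was called elsewhere on the same piece, and for the other 52 none was. The distance to the nearest one ran from 106 to 19880 bp with a median of 1182 bp. It was at most 500 bp at 15 regions, of which 12 faced a peak of palm 765, and at most 1000 bp at 23. Palm 765 also had the longest mantled list, with 3910 peaks against 296 in 687, 1168 in 754 and 580 in 770. Distances at other regions are not given here. The closest case was p5.00_sc00092_p0016 from 732 to 1244, with a peak of palm 765 at 106 bp. When peaks up to 500 bp apart were joined before counting, 89 regions remained under the rule.

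Scaffold sc00212 held 4 of the regions, a pair on each of 2 pieces. On p5.00_sc00212_p0002 they lay from 417 to 653 and from 1122 to 1589, and on p5.00_sc00212_p0003 from 16810 to 17046 and from 17508 to 17879. The starts differed between the pieces by 16393 and 16386 bp, and 2 further H3K4me3 regions followed on each piece with starts that differed by 16409 and 16394 bp. The spacing of the 4 regions thus recurred on both pieces. The first region of each pair was 237 bp wide on both pieces, with fold enrichments of 3.44 in palm 753, 3.70 in 758 and 4.58 in 768 on the first piece and of 3.63 in 758 and 5.20 in 768 on the second. The further regions had a peak in mantled palm 765, at 7.98 and 7.18 on the first piece and 5.38 and 6.18 on the second. They therefore fell outside the rule. The one from 1900 to 2270 on the first piece also had a peak in only 1 normal palm, 758. Whether the pieces share sequence was not examined, and reads from near-identical copies could be divided between them, so the 4 regions are uncertain as separate places.

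H3K27me3, which played no part in the selection, was found at 62 of the 105 regions in at least 1 of 10 palms (59.0%), against 58.3% of all 5826 regions. The share was near this background. Among the other 1955 regions with H3K4me3 in at least 2 normal palms it was 86.4%, and among the 1405 with palm 765 as the only mantled palm 81.6%. H3K27me3 in at least 3 palms was found at 17.1% of the 105 regions, 54.0% of the 1955, 39.1% of the 1405 and 27.3% of all regions. These sets differ in width and H3K4me3 strength, both given above, and the part of either in the difference was not tested. Of the 62 regions, 33 had an H3K27me3 peak with a −log10 q of at least 5.

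The mark was present in both phenotypes. H3K27me3 peaks stood at 14 of the 105 regions in mantled palm 673, 5 in 687, 2 in 754, 24 in 765 and 12 in 770, and at 11 in normal palm 753, 7 in 758, 14 in 764, 23 in 767 and 15 in 768. Of all merged regions the shares were 32.1, 7.54, 14.6, 25.5 and 16.0% in these mantled palms. In the normal palms they were 10.7, 13.0, 22.0, 27.4 and 11.6%. The share of the 105 regions was lower in each palm except 768, where it was 14.3%, and nearly equal in 753, at 10.5%. The averages were 11.4 ± 8.59 regions in mantled palms and 14 ± 5.92 in normal palms (SD, n = 5 each), and the groups overlapped over most of their range. Of the 62 regions, 11 had the mark in mantled palms only, 17 in normal palms only and 34 in both. More mantled than normal palms carried it at 17 regions, fewer at 26 and an equal number at 19. The same splits over all 5826 regions are not given here, so these counts are not read as a trait of the 105 regions. Mantled palm 765 and normal palm 767 shared 15 of these 24 and 23 regions. Among the other 1955 regions these palms also had the highest shares with H3K27me3, 60.9% in 765 and 60.2% in 767. Their overlap there is not given, so the 15 are not read as a trait of the 105 regions.

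**Figure D4:**
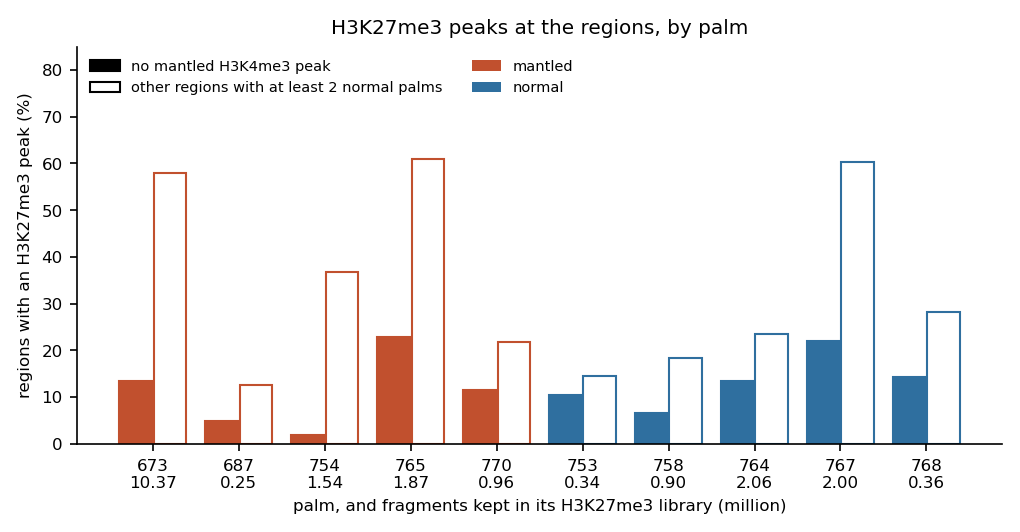
Bars give the percentage of regions with an H3K27me3 peak in each palm, mantled palms left of normal ones, with the fragments kept in its H3K27me3 library; filled bars are the 105 regions and open bars the other 1955 with H3K4me3 in at least 2 normal palms. The filled bars reach up to 22.9% in mantled palms and up to 21.9% in normal palms, and each is lower than the open bar beside it.

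Presence of H3K27me3 was compared between 5 mantled and 5 normal palms by a two-sided Fisher's exact test for each of the 5826 regions. No region passed after Benjamini-Hochberg adjustment over all of them (0% called), and the smallest adjusted p was 1. With this number of palms the smallest unadjusted p possible is 0.00794, so no single region could pass the adjustment by itself. An unadjusted p under 0.05 was found at 0 of the 105 regions, against 4 of 5826 (0.0687%), and the smallest among the 105 was 0.206. Such a p needs the mark in at least 4 palms. Of the 105 regions, 6 had it in exactly 4 palms and 2 in exactly 5. At the others the outcome was fixed in advance, so the 0 carries little information. A gain or loss of H3K27me3 accompanying the missing mantled H3K4me3 peaks was therefore not detectable with these palms at any single region.

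The smallest p belonged to p5.00_sc00387_p0003 from 127045 to 127487. It had H3K27me3 in 1 mantled palm, with a fold enrichment of 4.12 in 687, and in 4 normal palms, with 3.62 in 753, 3.27 in 758, 2.55 in 764 and 3.01 in 767 (two-sided Fisher's exact p = 0.206, n = 5 and 5). Only normal palm 768 lacked it among the normal palms. Without mantled palm 687 the mark was in 0 of 4 mantled and 4 of 5 normal palms, and without normal palm 768 in 1 of 5 mantled and 4 of 4 normal palms (unadjusted two-sided Fisher's exact p = 0.0476 in each). H3K4me3 was weak at this region, with 2.35 in palm 753 and 1.67 in palm 758.

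The opposite lean was on p5.00_sc00228_p0008 from 4458 to 4776. H3K27me3 was called there in 3 mantled palms, with 5.84 in 687, 3.90 in 765 and 4.95 in 770, and in 1 normal palm, with 5.54 in 758 (two-sided Fisher's exact p = 0.524, n = 5 and 5). On p5.00_sc00103_p0033 from 6128 to 6440 the mark was in mantled palms 765 and 770, at 3.18 and 3.84, and in no normal palm. On p5.00_sc00035_p0075 from 16533 to 17055 it was in no mantled palm and in normal palms 753 and 764, at 3.66 and 2.57. None of these differences passed the test.

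Other regions carried the mark in several palms of both kinds. On p5.00_sc00075_p0096 from 11438 to 12175 it was in mantled palm 770 at 4.67 and in normal palms 753, 758 and 768 at 4.73, 3.86 and 6.29. On p5.00_sc05286_p0001 from 2 to 222 it was in mantled palms 687 and 765 at 5.40 and 2.01 and in normal palms 753, 767 and 768 at 5.11, 2.13 and 3.85. The first-ranked region on p5.00_sc02166_p0001 had it in mantled palm 765 at 3.37 and in normal palms 767 and 768 at 3.89 and 5.25. The second-ranked, on p5.00_sc00022_p0103, had it in mantled palm 765 alone, at 3.04.

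Within the normal palms, the H3K27me3 calls at the regions were set against the H3K4me3 calls of the same palm. Of the 227 pairs of a region and a normal palm with an H3K4me3 peak, 26 also had an H3K27me3 peak in that palm. Of the 298 pairs without an H3K4me3 peak, 44 had one. By palm, H3K27me3 was at 7 of 69 regions with H3K4me3 and 4 of 36 without it in palm 753, at 7 of 98 and 0 of 7 in 758, at 1 of 11 and 13 of 94 in 764, at 4 of 13 and 19 of 92 in 767, and at 7 of 36 and 8 of 69 in 768. The share with H3K27me3 was higher beside an H3K4me3 peak in palms 758, 767 and 768 and lower in 753 and 764. The pairs share palms and regions and are given without a test. The same split over all merged regions is not given here, so these counts are not read as a trait of the selected regions.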

How the data were processed

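ChIP-seq of H3K4me3 (9 palms) and H3K27me3 (10 palms), each with an input, makes up the 38 samples. Bowtie2 2.2.5, SAMtools 1.9, FastQC 0.11.3 and MACS2 2.1.1.20160309 are named in the submitters' processing notes. The authors' MACS2 calls set each library against its input, used read pairs as fragments, kept 1 fragment per position and cut at q 0.05 with the genome size set to 221 Mb, per the file headers. H3K4me3 was called narrow and H3K27me3 broad. The pileup the authors deposited is a signal, the fragments stacked over a position, not scaled for depth. Fold enrichment as deposited is the ratio of pileup to local background, taken at the summit (narrow) or averaged over the peak (broad). The deposited p and q are −log10 values of a p-value and a q-value. The genome build is not given in the sources used here. Depth is the fragments kept per library, per the file headers, and its inequality limits the precision of comparisons between palms.

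H3K4me3 peaks sharing at least 1 bp were merged, and a palm's value is its strongest peak in a region. H3K27me3 was scored as present where a peak shared at least 1 bp with the region. Medians are over palms with a peak. Fisher tests ran over all 5826 regions, and ratios of fragments were tested by exact permutation. The scaled p used the caller's pseudocount of 1. Merging, the rule and the Fisher test were checked on simulated data. Named regions are the first 25 by number of normal palms and then median fold enrichment, and up to 5 each by number of H3K27me3 palms, by difference in H3K27me3 between phenotypes, by width, and just outside the rule. The closest, the recurring and the depth-scaled regions were named after their values were seen, as was palm 754 singled out. The regions and lists were chosen with earlier results of these data known. Alternatives covered peak strength, overlap, palm number, mark labels and each palm left out. Python 3.11.15, numpy 2.4.6, pandas 2.3.3, scipy 1.17.1 and matplotlib 3.10.9 were used.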

Additional observations from a re-analysis of the deposited data

Results flagged for a closer look

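In 14 groups of palms screened for a palm far from the rest of its group, 3 values stood apart. Chance alone sets such a mark on about 1 group in 20 if values are normally distributed, which was not checked here. The depth of palm 765 and its share of regions with a peak come from the same library and are not independent. Mantled palm 765 held 3670206 H3K4me3 fragments, against 229258 to 783650 in the other 3 mantled palms. The same palm had a peak at 86.3% of the 2060 regions with peaks in at least 2 normal palms, against 9.81, 15.5 and 20.8% in mantled palms 687, 754 and 770. Mantled palm 673 held 10374962 H3K27me3 fragments, against 253624 to 1865140 in the other 4 mantled palms, and had H3K27me3 at 14 of the 105 regions.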

How the results depend on the processing

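The number of regions under the rule, 105, was 50 with a fold enrichment of at least 3 (34 of them among the 105), 42 with the 296 strongest peaks of each list, 15 with at least 3 normal palms and 846 with at least 1. In the 3 deepest H3K4me3 libraries alone (765 against 753 and 758), an alternative chosen after seeing the data, it was 172. Leaving out 1 palm gave 21 (without normal palm 758) to 1649 (without mantled palm 765). It was 73 with a −log10 q of at least 5 (56 of them among the 105), 89 to 106 under the other overlaps and 138 with the marks of palm 754 exchanged. The number with H3K27me3 in any palm, 62, was 33 with a −log10 q of at least 5 and 106 of 150 regions without palm 754 in both marks, and 56 to 62 with 1 palm of H3K27me3 left out. The count of regions with an unadjusted Fisher p under 0.05, 0, was 0 to 1 with 1 palm left out and 0 under every other alternative run. The H3K4me3 ratio of fragments, 0.428, was 0.254 (without mantled palm 765) to 0.641 (without mantled palm 687) and reversed to 1.01 in the input libraries (two-sided exact permutation p = 0.937, n = 4 and 5). That for H3K27me3, 1.75, lay between 1.08, with palm 673 left out, and 2.72, with palm 687 left out. The cause of these shifts was not tested. Depth was lowest in H3K4me3 libraries 687, 767, 754 and 770, where weak peaks are least certain to be listed. No paired analysis was possible because mantled and normal palms are different plants and share no palm number.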

Other observations

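Mantled palm 765 and normal palm 753 had 3670206 and 3544422 H3K4me3 fragments. Of the merged regions, 2105 had a peak in palm 765 and not in 753, 242 had one in 753 and not in 765, and 1804 had both. Among the 171 regions with peaks in normal palms 753 and 758 and none in mantled palm 765, 89 had a peak in mantled palm 754 and 64 had none in any mantled palm.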
